A study of Drosophila melanogaster with 4 samples.

Results

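Obp83b, Obp56a and EbpIII encode small secreted proteins of Drosophila melanogaster that carry hydrophobic ligands. They were taken by their gene identifiers, CG11422, CG11797 and CG11390, from the authors' deposited table of 244 genes selected for a change, and each of the 3 had 1 row in it. Because that table lists genes chosen on the same contrast, the ratios of the 3 genes are described here without a test.

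Odorant-binding proteins are abundant in the fluid around chemosensory neurons, where support cells secrete them and where they bind odorants, pheromones and other poorly soluble ligands. The chemosensory proteins, to which EbpIII belongs, form a separate family of small soluble carriers. Genes of both families are also expressed outside the sense organs, and their ligands there are mostly unknown.

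The RNA came from the tracheae, the airway epithelium with its cuticle lining, of third-instar larvae. Larvae aged 10 days at 22 °C, from a cross of the airway GAL4 driver strain NP2610 with a UAS-PGRP-LE strain, overexpressed PGRP-LE, a peptidoglycan receptor that switches on the immune deficiency (IMD) pathway. The control was the NP2610 driver strain alone, at the same age and stage, so both groups carry the driver and only the PGRP-LE group carries genes of the second parental strain. Overexpression and strain background therefore cannot be told apart. Each RNA was a pool of 20 pairs of tracheae, and both RNAs were labelled with Cy3 or Cy5 and hybridised together on two-colour arrays. The titles give 4 arrays, as 2 biological replicates with 2 arrays each. In whole tissue, fewer cells of a type and less RNA per cell cannot be told apart.

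The numerator of the ratio is not named in the file. Its hybridisation group carries the name of the PGRP-LE cross, and channel 1 held that cross on each of the 4 arrays, so positive ratios are here called higher, meaning probably higher with PGRP-LE overexpression. PGRP-LE itself is not among the listed genes, so the overexpressed gene gives no check of this direction. The dye fields of the first array name Cy5 in both channels, and the file spells the driver NP2160.

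In the authors' deposited table all 3 carrier genes had positive ratios, as did 187 of its 244 genes (76.6%). That share describes genes already selected, and nothing is read from the count of 3. Obp83b had the highest ratio of the group and EbpIII the lowest.

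Obp83b, listed in the file as Olfactory-specific E, encodes an odorant-binding protein first known from the antenna. Its mean log2 ratio in the authors' deposited table was 1.67 (authors' SD 1.37 over 8 valid spots), a 3.18-fold higher level. Ranked from the highest, this ratio was 12th among all rows of the authors' deposited table. Its SD was the second largest in the authors' deposited table, where CG30378 alone exceeded it (SD 1.73, 6 spots). One SD around the mean of Obp83b spans 0.30 to 3.04 on the log2 scale in the authors' deposited table, a wider span than for either of the other two genes.

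Obp56a encodes an odorant-binding protein from a cluster of such genes on chromosome arm 2R. Its mean log2 ratio in the authors' deposited table was 1.30 (authors' SD 1.06 over 8 valid spots), a 2.46-fold higher level and the 40th highest ratio, shared with the gene mv. The SD of Obp56a ranked 7th of 244 in the authors' deposited table. One SD around its mean runs from 0.24 to 2.36 in the authors' deposited table, so this gene too was measured with a wide spread.

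EbpIII encodes a chemosensory protein named for the ejaculatory bulb of the adult male. Its mean log2 ratio in the authors' deposited table was 0.82 (authors' SD 0.34 over 8 valid spots), a 1.77-fold higher level and the 120th highest ratio. Fer1HCH, CR18228 and dbo shared this ratio, which equals the median of all rows of the authors' deposited table. That median includes the lower genes, and the 187 higher genes alone had a median of 0.92. By absolute size of the ratio, EbpIII ranked 158th of 244 in the authors' deposited table. The lowest positive ratio in the authors' deposited table was 0.59, so EbpIII lay 0.23 above the edge of the selection. Its spread was narrow, with an SD that ranked 204th of 244 in the authors' deposited table and a range of 0.48 to 1.16 for 1 SD around the mean.

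Relative to its mean, EbpIII was the most evenly measured of the 3. The coefficient of variation, which is the SD divided by the mean, was 0.42 for EbpIII against 0.82 for Obp83b and 0.81 for Obp56a in the authors' deposited table. Over all rows of the authors' deposited table the median was 0.585, and the 134 genes with 8 valid spots had a median of 0.545. A coefficient above 0.8 was found for 44 rows of the authors' deposited table, both odorant-binding protein genes among them. No gene of the authors' deposited table had a coefficient above 0.97. That 1 SD around each mean stays above 0 is therefore a property of the list. Taking 2 SD instead, the lower bound in the authors' deposited table was 0.14 for EbpIII, -0.82 for Obp56a and -1.07 for Obp83b. In absolute size the ratio exceeded 2 SD in 81 of the 244 genes of the authors' deposited table, 64 of them higher and 17 lower. EbpIII was the 1 member among them.

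**Figure D1:**
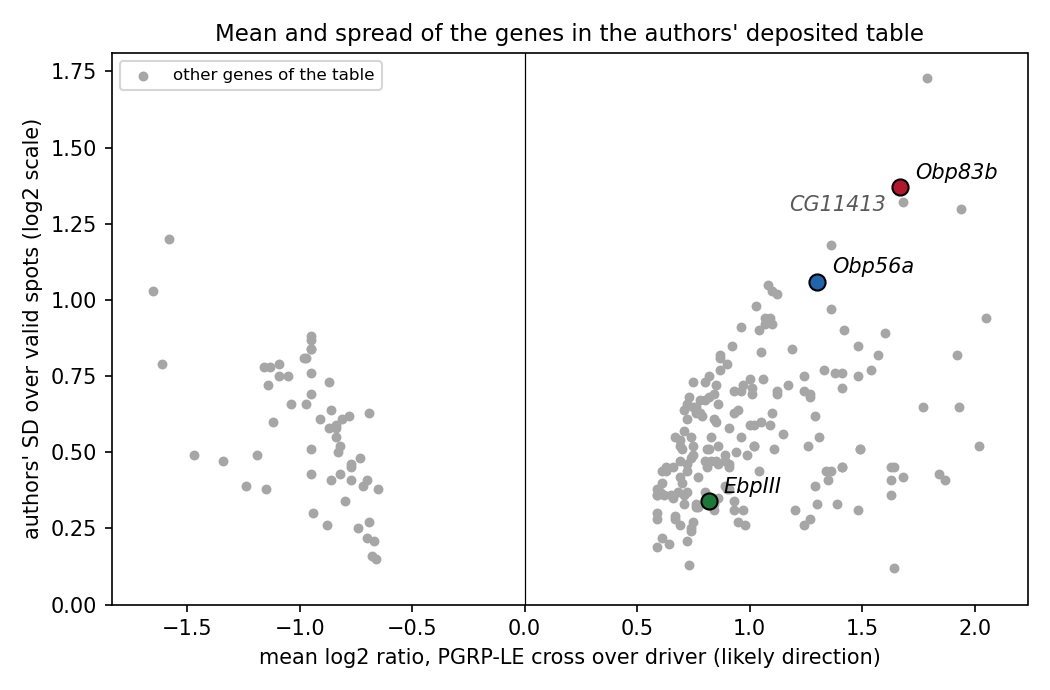
Mean log2 ratio (x axis) against the authors' SD over valid spots on the log2 scale (y axis) for the 244 genes of the authors' deposited table, 1 point per gene. Obp83b at 1.67 and Obp56a at 1.30 sit at the upper edge of the spread, beside CG11413 at 1.68, while EbpIII at 0.82 lies among the genes with a small SD.

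Each difference between the 3 ratios was smaller than the SD of the gene with the higher ratio. That SD is a spread of spots and does not measure the precision of a mean, so it cannot settle the order. Obp83b exceeded Obp56a by 0.37 on the log2 scale in the authors' deposited table, which is less than the SD of either gene. Obp56a exceeded EbpIII by 0.48 in the authors' deposited table, less than its own SD of 1.06 and more than the 0.34 of EbpIII. The difference of 0.85 between Obp83b and EbpIII was likewise under the SD of Obp83b in the authors' deposited table, and more than the 0.34 of EbpIII. These differences were not tested, since values per array cannot be assigned to a gene here. The ratios compare the 2 RNAs for each gene and give no level of one gene against another.

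Each carrier gene was measured on 8 spots, as were 134 of all 244 rows of the authors' deposited table. The spots come from the same few RNAs, so the SD pools spread within arrays, between arrays and between biological replicates, and no standard error was derived from it.

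Secretion is what the file's Gene Ontology text records for all 3 genes. "Extracellular" was the 1 term shared by the 3, out of 6 terms for Obp83b, 6 for Obp56a and 5 for EbpIII. The term was carried by 14 genes of the authors' deposited table, of which 12 were higher and 2 lower. The 11 others were mostly immune effectors: the attacins AttC and AttA, the cecropin CecA2, the drosomycin-like Drsl1 and Drsl4 and the diptericin DptA, all secreted antimicrobial peptides, with the recognition protein PGRP-SD. The remainder were NimB2, a secreted protein of the Nimrod family, the transferrin Tsf1, the signalling ligand gbb and the storage protein Lsp2. The higher share was 85.7% for these 14 genes, against 76.6% for the whole of the authors' deposited table. Without the 3 carriers, 9 of 11 were higher (81.8%), against 184 of the 241 other genes of the whole table (76.3%). Nothing is read from these counts. The median log2 ratio was 1.20 for the 11 genes and 0.81 for the 241 genes of the authors' deposited table other than the carriers.

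By ratio the carriers were interleaved with the peptides. The authors' deposited table gave Obp83b at 1.67 beside CecA2 at 1.68 (SD 0.42, 6 spots). Among its extracellular genes the authors' deposited table had Obp56a, at 1.30, just above DptA at 1.20 (SD 0.31, 6 spots). Both odorant-binding protein genes had wider spreads than these peptides, and no other extracellular gene of the authors' deposited table had an SD above 0.85, the value of Drsl4. Further down the authors' deposited table, EbpIII at 0.82 was close to NimB2 at 0.80 (SD 0.67) and above Tsf1 at 0.70 (SD 0.40).

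**Figure D2:**
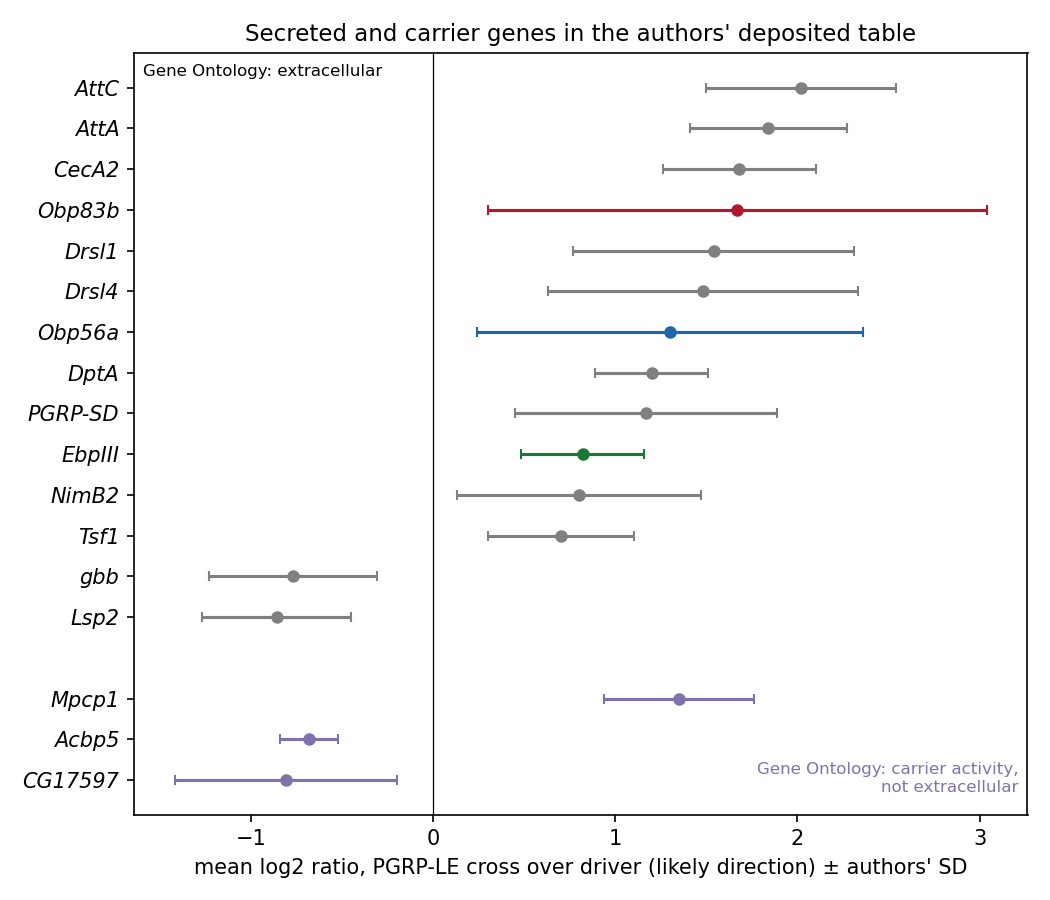
Mean log2 ratio with the authors' SD as bars for the 14 genes annotated as extracellular and for the 3 genes annotated with carrier activity but not as extracellular, from the authors' deposited table, with Obp83b in red, Obp56a in blue and EbpIII in green. The bars of Obp83b (SD 1.37) and Obp56a (SD 1.06) are the widest shown, while EbpIII (SD 0.34) has one of the narrower ones.

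The remaining terms divide the 3 genes. "Response to pheromone" was attached to Obp83b and Obp56a and to no other gene of the authors' deposited table. Obp56a was further annotated with odorant binding, perception of smell and olfactory behavior, and Obp83b with pheromone binding. EbpIII carried "sensory perception", assigned electronically, and "response to virus" and "metamorphosis", both on evidence from its expression pattern. No other gene in the authors' deposited table had any of these terms. Obp56a had the narrower term for sensory perception of chemical stimulus. Obp83b also had receptor binding, signal transduction and transport, terms held by 3, 6 and 7 genes of the authors' deposited table. Neither odorant-binding protein gene had an immune term. Of the 244 rows, 92 had no term at all, so counts by term cover 152 genes.

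Genes annotated with carrier activity did not share one direction, nor did the whole list, where 187 of 244 genes (76.6%) were higher. Nothing is read from the direction of so few genes. The term does not cover every listed carrier, and Jhbp1, given below, lacks it. "Carrier activity", a term of EbpIII, was held by 5 genes of the authors' deposited table, 3 higher and 2 lower. Besides EbpIII and Tsf1, the authors' deposited table had Mpcp1, which encodes a mitochondrial phosphate carrier, on the higher side at 1.35 (SD 0.41). Acbp5, annotated with acyl-CoA binding, had a ratio in the authors' deposited table of -0.68 (SD 0.16, 8 spots). For CG17597, annotated with lipid transport and fatty acid oxidation, the authors' deposited table gave -0.81 (SD 0.61, 8 spots). Acbp5 and CG17597 were the 2 genes with the lipid transport term, and both were lower.

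Most of the families to which the 3 genes belong were absent from the list of changed genes. The RefSeq table for Release 6 names 52 odorant-binding protein genes, and the authors' deposited table held 2 of them. It names 4 genes of the chemosensory protein list (EbpIII, a10, Phk-3 and CG30172), of which EbpIII alone was listed. For the other 53 genes of both families the authors' deposited table gives no value, and whether the array carried a probe for each of them is not known here. The number of genes on the array is not known here either. Without the share of all genes that were listed, nothing is read from these counts about the families. Lists of 8 NPC2 family genes and of 4 lipocalin and fatty acid binding protein genes had no member in the authors' deposited table. NPC2 proteins bind sterols and other lipids. The gene takeout was not listed either. Jhbp1, counted here with the takeout family, was in the authors' deposited table at 0.93 (SD 0.34, 6 spots).

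Both odorant-binding protein genes lie next to relatives in the genome, and EbpIII lies near a relative. None of these relatives was listed. Obp83a, the close relative of Obp83b, is its direct neighbour among the protein-coding genes of chromosome arm 3R. Obp56b, Obp56c and Obp56d follow Obp56a on 2R, and CG30172 lies 3 places from EbpIII on the same arm. None of the 3 protein-coding genes on either side of each member was in the authors' deposited table. The share of all genes that were listed is not known here, so this absence is not read as a feature of the members. Probe sequences were not analysed here, so whether a probe for one gene also bound RNA of a related one was not tested.

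By serial gene number, each of the 3 was within 40 numbers, the gap searched, of another listed gene. How many of all rows have such a listed gene was not counted, so nothing is read from this. CG11413, which lies on 2R, is 9 numbers from Obp83b, on 3R. Of all genes in the authors' deposited table, CG11413 was nearest to Obp83b in mean and SD together, at 1.68 (SD 1.32, 8 spots), a comparison chosen after the values were seen. Its SD was the third largest in the authors' deposited table. The gene mv (CG11814), on 3L, is 17 numbers from Obp56a and in the authors' deposited table had the same mean of 1.30 with a smaller spread (SD 0.33, 6 spots). EbpIII is 23 numbers from CG11413 and 32 from Obp83b. The part of such proximity in these ratios was not tested.

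The list gave little information on other tissues. Of 6 genes for chemosensory neurons and their support cells, 6 for the salivary gland and 7 for the airway epithelium itself, none was in the authors' deposited table, which gives no measure of their levels. Of the other marker lists, 1 of 8 blood cell genes (atilla, higher), 1 of 8 fat body genes (Lsp2, lower), 1 of 7 gut genes (Jon99Fi, lower) and 1 of 5 muscle genes (Mf, lower) were in the authors' deposited table. Their part in the ratios of the carriers was not tested. Of 21 antimicrobial peptide genes, 10 were in the authors' deposited table, all higher. Among all 244 listed genes, 187 (76.6%) were higher. The share of all array genes that were listed is not known here, so nothing is read from the count of 10.

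A second deposited table gives a log ratio for each of 32448 numbered spots on each of the 4 arrays, without gene names, so no spot can be assigned to the carriers. Its base, direction and normalization are not stated, and the medians of the 4 columns ran from -0.41 to 0.98. Between arrays the Pearson correlation across spots, which are not independent replicates, was -0.086 for the pair of biological replicate 1, 0.0082 for the pair of replicate 2 and -0.083 to 0.106 for the other pairs. With the 2 arrays of a replicate averaged, limma called 0 of the 32448 spots, 0%, at an adjusted p of 0.05, and 1256 spots, 3.87%, at an unadjusted p of 0.05. These values describe the spots as deposited and not the authors' selection, whose steps were not repeated here.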

How the data were processed

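RNA of larval tracheae was compared on 4 two-colour arrays. The authors' values per gene are, per the file headers, the mean and standard deviation of the log2 ratio, a count of valid spots and the coefficient of variation, a ratio of SD to mean. Per the series' design text, these genes were selected from the output of SAM and GeneTraffic. For background correction, normalization, thresholds and probe build, details were not given in the sources used here. No coordinates are printed. A value table that the authors deposited holds a score per spot, read as a log ratio of unstated base. The number of arrays and spots limits the precision.

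Gene names came from RefSeq's table for Release 6: 227 identifiers matched a locus tag, 13 a single older identifier and 4 nothing. Members, lists and tests were chosen with earlier results of these data known. The rule for named genes took the 3 members, listed relatives, genome neighbours and listed genes of each list. Its nearest genes by array profile could not be found without spot names. They were replaced by the nearest in mean and SD. The value table was tested with limma 3.58.1 in R 4.3.3 on the means of both arrays of a replicate, taken as deposited, with Benjamini-Hochberg adjustment. On simulated data with 200 of 32448 spots changed by a log ratio of 5, the fit recovered 99.8% of them, while 14% of its calls were false. At a log ratio of 2 it recovered 1.55%, and 55.1% of its calls were false. Unchanged simulated spots were centred on 0, whereas the medians of the deposited columns ran from -0.41 to 0.98. The recovery therefore need not hold for the deposited values. Python 3.11.15, numpy 2.4.6, pandas 2.3.3 and matplotlib 3.10.9 were used.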

Additional observations from a re-analysis of the deposited data

How the results depend on the processing

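Read the other way, as driver over PGRP-LE cross, the log2 ratios in the authors' deposited table would be -1.67 for Obp83b, -1.30 for Obp56a and -0.82 for EbpIII. Each gene has 1 row pooled over arrays, so centring, leaving out a replicate or an array, a replicate block and averages over probes could not be run for the 3 genes, nor any count or median of their families from a fit. No paired analysis was possible because the pooled ratios carry no replicate numbers. Among the unnamed spots, limma at an adjusted p of 0.05 called 0 as deposited, after centring, with the biological replicate as a random block, with the sign turned and without each array in turn (lowest 0, highest 0). At an unadjusted p of 0.05 it called 1256, from 551 without array 2 to 1884 after centring. Of the settings chosen after seeing the data, reading the columns as Cy5 over Cy3 gave 0 adjusted calls and 280 unadjusted ones (0 and 718 when centred), and means of 2 adjacent centred spots gave 7 adjusted calls of 16224. The cause of that difference was not tested. A fit with dye as a term was not run because the dyes of the first array are not settled. Leaving out a whole replicate leaves 1 and no test, and every spot has a value on all arrays.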
